A study of Mus musculus with 12 samples.

Results

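The genes described here are 42 genes of DNA replication and mitosis, taken by symbol from the 20325 genes measured in mouse pre-iPSCs. The set was listed by function with earlier results of these data known, and the rule itself uses no measured value. All 42 were present in the data and passed the filter of at least 10 reads in at least 3 libraries that 13400 genes passed. Pre-iPSCs are clonal lines halted on the way from fibroblast to induced pluripotent stem cell (iPSC), made from Nanog-GFP mouse embryonic fibroblasts with retroviral Oct4, Sox2, c-Myc and Klf4. They were grown in serum-containing embryonic stem cell medium without feeder cells for 48 h and harvested on day 2 in 4 groups of 3 libraries. The groups were DMSO (the solvent control), ascorbic acid (AA) at 50 μg ml−1, 2i (the MEK inhibitor PD0325901 at 1 μM with the GSK inhibitor CHIR99021 at 3 μM) and AA+2i (all of these agents together). Every group carried the reprogramming transgenes, and the replicates of each group are lettered A, B and C. The values of a group therefore describe populations of partially reprogrammed cells, and not iPSCs.

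Cells copy their DNA once per cycle. In G1 the licensing factors Cdc6 and Cdt1 load the ring-shaped Mcm helicase at origins, and in S phase the helicase is activated by the GINS complex and Mcm10, while Pcna clamps the polymerases to DNA and ribonucleotide reductase supplies nucleotides. Cyclin B and its kinase Cdk1 then start mitosis, Aurora and Polo kinases build the spindle, the checkpoint kinases hold the chromosomes until all are attached, and cytokinesis splits the cell. The transcripts of the first set peak at the G1/S border under E2F factors and those of the second set in G2 and M phase under Foxm1 and related factors, so in a growing culture the levels of both sets follow the share of cells in those phases. Embryonic stem cells and their relatives cycle fast, with a short G1. RNA from a bulk culture cannot tell fewer cells of a phase from less RNA per cell.

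Sequence elements that are usual for these 2 waves were found in many but not all promoters of the members. They are shown first because the groups below follow the same division. RefSeq promoters of 300 bases (250 before the start and 50 from it on, build GRCm38.p6) were at hand for 33 of the 42 members and for 32851 promoters in all. The CHR, a short element of G2/M genes spelled TTTGAA or TTTAAA here, was found on either strand in 16 of 18 promoters of mitosis members (88.9%), 4 of 14 of replication members (28.6%) and 27.6% of all promoters. The CCAAT box, CCAAT on either strand, was in 16 of 18, 9 of 14 (64.3%) and 37.4%. Both elements were in 15 of 18 mitosis promoters (83.3%) and 10.7% of all. An E2F site, spelled TTTCCCGC or TTTGGCGC or TTTCGCGC or TTTGCCGC on either strand, was in 1 of 18 mitosis promoters (5.56%), 6 of 14 replication promoters (42.9%) and 2.26% of all. None of these spellings contains another. A match describes the letters only and is no proof of binding. The 4 promoters below show the range, with the matches in capitals. Ccnb1 and Top2a carry CHR and CCAAT elements, and Cdt1 has an E2F spelling just after the start. Within its 300 bases Mcm10 has CCAAT matches alone. Its last letters match the start of TTTGGCGC and are cut by the end of the window, so a full match there could not be seen.
Ccnb1, chr13:100786437-100786736, minus strand: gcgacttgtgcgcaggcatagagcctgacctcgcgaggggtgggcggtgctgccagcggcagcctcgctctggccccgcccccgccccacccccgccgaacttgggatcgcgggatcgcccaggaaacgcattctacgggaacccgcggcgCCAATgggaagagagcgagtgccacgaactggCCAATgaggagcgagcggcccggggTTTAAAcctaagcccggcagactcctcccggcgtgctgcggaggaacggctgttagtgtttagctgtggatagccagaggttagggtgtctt
Top2a, chr11:99024140-99024439, minus strand: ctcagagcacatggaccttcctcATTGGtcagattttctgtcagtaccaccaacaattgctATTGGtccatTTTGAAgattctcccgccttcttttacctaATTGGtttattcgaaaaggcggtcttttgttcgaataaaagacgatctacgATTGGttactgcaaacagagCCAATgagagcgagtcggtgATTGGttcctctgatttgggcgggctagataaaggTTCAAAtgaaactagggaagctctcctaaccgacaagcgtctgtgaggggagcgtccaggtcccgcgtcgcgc
Mcm10, chr2:5012742-5013041, minus strand: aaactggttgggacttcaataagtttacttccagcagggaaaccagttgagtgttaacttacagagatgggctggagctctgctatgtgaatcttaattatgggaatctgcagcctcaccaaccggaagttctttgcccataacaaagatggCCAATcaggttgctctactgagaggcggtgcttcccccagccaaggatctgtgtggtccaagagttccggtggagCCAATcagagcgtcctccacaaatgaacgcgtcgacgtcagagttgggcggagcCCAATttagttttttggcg
Cdt1, chr8:122567765-122568064, plus strand: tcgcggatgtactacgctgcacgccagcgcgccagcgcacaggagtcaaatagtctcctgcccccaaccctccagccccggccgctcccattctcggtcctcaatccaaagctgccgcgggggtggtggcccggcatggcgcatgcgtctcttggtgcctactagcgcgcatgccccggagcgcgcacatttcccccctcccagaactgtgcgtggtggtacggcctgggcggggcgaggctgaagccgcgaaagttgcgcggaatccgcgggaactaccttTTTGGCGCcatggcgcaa

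The members were well expressed. The mean TPM (the level of a gene's transcripts, scaled for gene length and for the library total) over the 12 libraries was between 21.9 for Cdc6 and 713 for Pcna, with a median of 124 against 19.5 for all genes tested. The lowest member stood at the 52.8th percentile of all genes tested, the median member at the 89.9th, and 11 members were in the top 5%. The libraries held between 16173322 and 54392719 reads in expected counts, the deepest being DMSO B and AA B, and no member had fewer than 121 reads in any library. The members took between 0.707% (AA+2i C) and 1.37% (DMSO A) of the reads of a library.

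Markers were checked for the labelled cell type. Of 10 fibroblast genes, 6 were under 1 TPM in all 12 libraries and 9 under 5 TPM, with Thy1 reaching 16.0 TPM in AA. Their summed level was 6.90 to 15.0 TPM with DMSO, 11.0 to 20.5 with AA, 5.79 to 6.42 with 2i and 7.62 to 10.8 with AA+2i. Of 6 pre-iPSC genes, Cdh1, Epcam, Sall4 and Pou5f1 were present in all libraries, Lin28a was low, and Fut4 was under 1 TPM in all. Reads of Pou5f1 may come from the transgene. The summed level of 6 genes of the completed pluripotent state was 49.1 to 98.5 TPM with DMSO, 1278 to 1719 with AA, 58.1 to 83.1 with 2i and 631 to 888 with AA+2i. Dppa5a made up most of the sums with AA (median 1419 TPM) and AA+2i (747). Zfp42 had the same order, with medians of 14.7 and 7.01. The other genes had higher medians with AA+2i than with AA: Nanog (37.1 and 17.1), Esrrb (2.53 and 0.47), Dppa3 (12.8 and 0.92) and Tcfcp2l1 (61.6 and 13.1). With 2i alone Tcfcp2l1 was at 31.8, against 8.89 with DMSO. The part of the markers in the results below was not tested.

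One property of the libraries touched nearly every member. The reads of a library depended on the GC content of the transcript, and by a different amount in each library. Transcripts of 40% GC stood 0.88 above their 12-library mean on the log2 scale in DMSO A and 0.70 above it in AA A, but 0.59 below it in AA+2i C. At 55% GC the same libraries stood at −0.79, −0.61 and 0.47. In the order DMSO, AA, 2i and AA+2i, the values at 40% GC were 0.88, 0.70, 0.27 and −0.14 in letter A. They were −0.05, −0.34, −0.39 and −0.59 in letter C, also falling in this order. Letter B did not have this order, with 0.07, −0.24, −0.12 and 0.01. The curves thus ran along with treatment in letters A and C, and whether they follow from it was not tested. The members have a median transcript GC content of 47.4%, against 50.3% for all genes tested, from 41.0% in Bub1 to 58.8% in Cdt1. For this reason the results are given as deposited and, where the call differs, after a GC correction, in which each library's curve of log2 level against GC content was subtracted. The DMSO libraries differed among themselves, as the heat map of all 12 libraries shows. The median member lay 0.46 above its 12-library mean in DMSO A, 0.14 below it in DMSO B and 0.24 above it in DMSO C, and these values were 0.18, −0.08 and 0.24 after the correction.

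**Figure D1:**
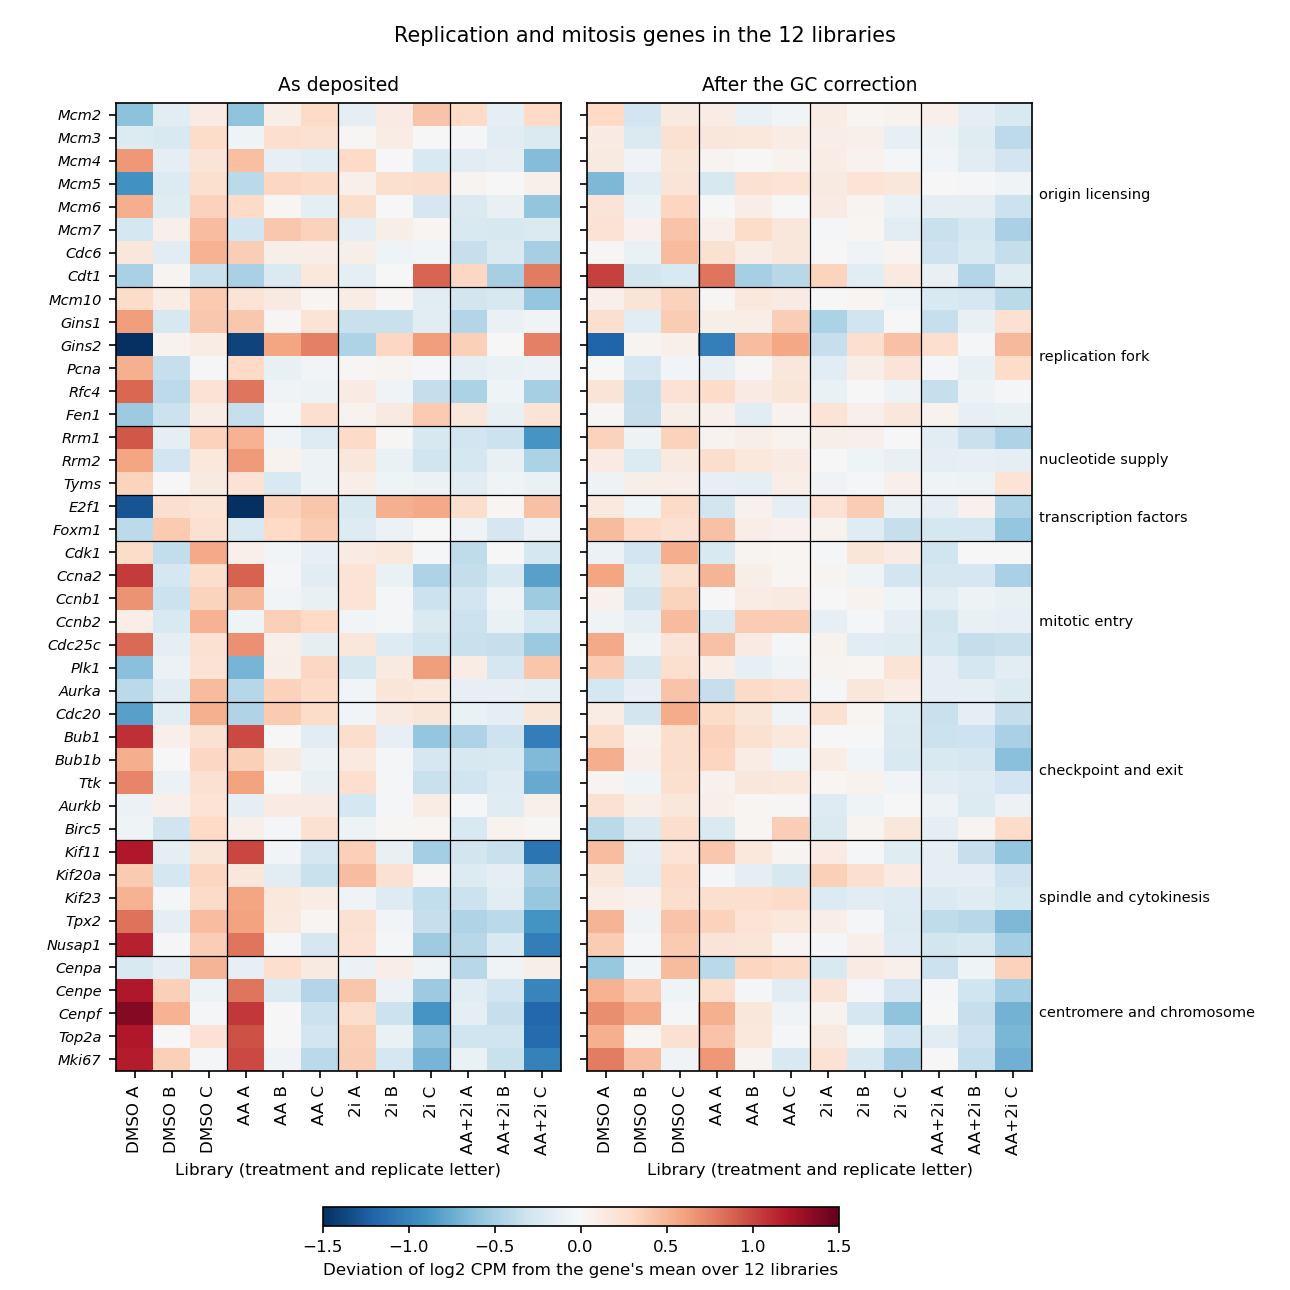
Heat map of the 42 members (rows, by role) in the 12 libraries (columns, by treatment and letter), as the deviation of log2 CPM (reads scaled for library size) from the gene's mean over the libraries, as deposited and after the GC correction. The low-GC genes of the lower rows are highest in DMSO A and AA A and lowest in AA+2i C in the left panel, and the contrast between letters is weaker in the right panel while the AA+2i columns stay mostly blue.

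AA alone against DMSO asked whether the chromatin-directed agent moved these genes. None of the 42 members passed the test in either direction (edgeR quasi-likelihood test with Benjamini-Hochberg adjustment over all genes, adjusted p under 0.05), beside 0.866% of all genes higher and 0.47% lower. None reached an unadjusted p under 0.05 either, beside 5.04% of all genes higher and 4.38% lower. DESeq2 also called none, beside 2.07% of all genes higher and 1.31% lower, and limma called none, beside 1.22% and 0.49%. The edgeR log2 fold changes ran from −0.44 (Cenpe) to 0.56 (Gins2) with a median of −0.06, against −0.01 over all genes tested, and 17 were positive and 25 negative. The median was −0.01 for the 17 replication members and −0.15 for the 23 mitosis members, and both lay within 0.06 of 0 after the GC correction. As deposited, in log2 CPM or in TPM, in no member did the 3 AA libraries lie wholly above or wholly below the 3 DMSO libraries, beside 4.84% of all genes below in log2 CPM and 4.13% in TPM. After the correction Aurkb, the Aurora B kinase, lay below in all AA libraries, beside 8.09% of all genes tested, and no other member lay apart.

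2i alone against DMSO asked the same of the signalling inhibitors. Again no member passed the edgeR test, beside 1.59% of all genes higher and 2.83% lower. DESeq2 called none, beside 3.16% of all genes higher and 5.04% lower, and limma called none, beside 1.25% and 3.37%. At an unadjusted p under 0.05 by edgeR, 0 were higher and 2 lower, beside 6.33% and 9.72% of all genes. These were Gins1, a subunit of the GINS helicase activator, with a log2 fold change of −0.58 ± 0.24 (SE), and Kif23, a kinesin of the central spindle needed for cytokinesis, with −0.48 ± 0.20 (SE). Over the members the log2 fold changes had a median of −0.24 against −0.02 over all genes tested, and 31 of 42 were negative. They were lowest in the centromere and chromosome group, with a median of −0.64 over 5 genes. With the replicate letter as a block, edgeR called 2 members lower, beside 8.18% of all genes: Cenpf (log2 fold change −0.94, adjusted p = 0.00609) and Mki67 (−0.70, adjusted p = 0.0257). With the GC correction edgeR called Kif23 alone (−0.33 ± 0.09 SE, adjusted p = 0.0397), beside 7.47% of all genes lower, and with both the correction and the block it called 9 members lower, beside 14.2% of all genes.

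Against DMSO, AA+2i gave the largest values. The median log2 fold change of the members was −0.48 against −0.02 over all genes tested, and 34 of 42 were negative. By the edgeR test 2 members fell, Mcm10 and Tpx2, and none rose, beside 4.41% of all genes lower and 3.93% higher. The share of members called is thus close to that of all genes. A further 15 members reached an unadjusted p under 0.05 with a lower value and none with a higher one. In all, 17 of 42 members were thus lower at that threshold, beside 13.3% of all genes lower and 11.5% higher. In 17 members all 3 AA+2i libraries lay below all 3 DMSO libraries in log2 CPM, beside 15.6% of all genes tested, and in 0 they lay above, beside 15.4%. In TPM, in which all genes tested had a median log2 change of −0.15, this held for 26 members, beside 22.5% of all genes.

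**Figure D2:**
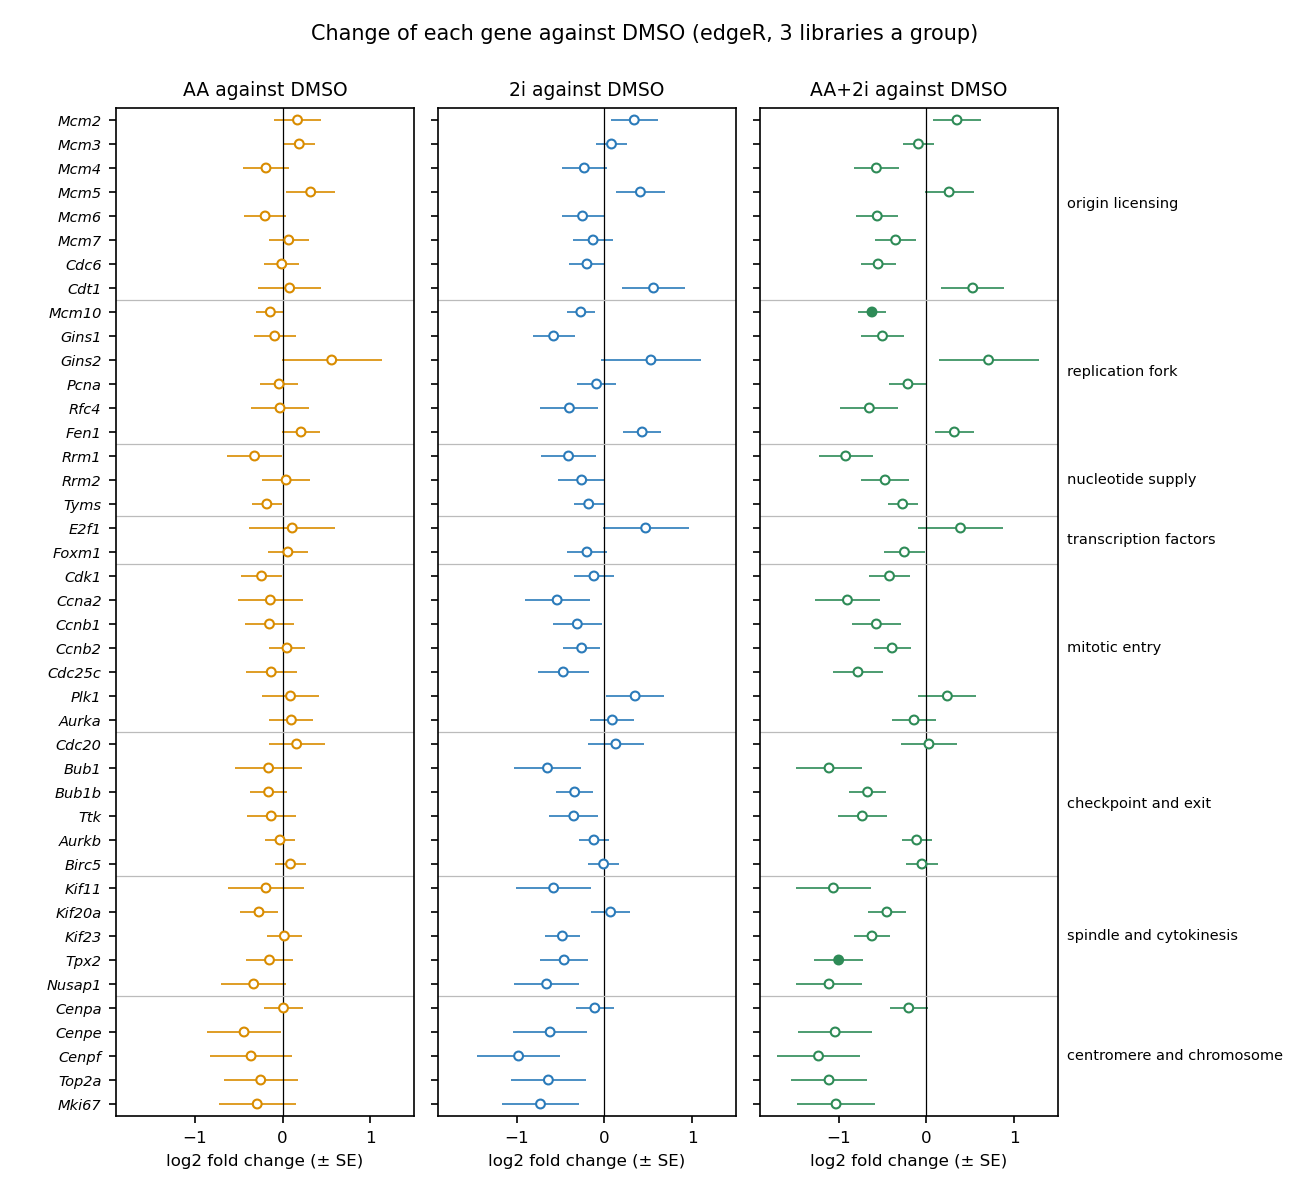
log2 fold change of each member against DMSO (x axis) with AA, 2i and AA+2i, with bars of 1 standard error and 3 libraries a group. Filled points passed the edgeR test. Only Mcm10 and Tpx2 in the AA+2i panel are filled, and the values there reach −1.23 for Cenpf.

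After the GC correction edgeR called 13 members lower with AA+2i and none higher, beside 10.7% of all genes lower and 8.95% higher. They were Mcm7, Cdc6, Mcm10, Rrm1, Foxm1, Cdc25c, Bub1, Bub1b, Kif23, Tpx2, Nusap1, Cenpf and Top2a. Among them the values of the high-GC genes Mcm7 and Foxm1 moved away from 0 and the others came closer to it, while all 13 standard errors shrank. In 16 members all AA+2i libraries lay below all DMSO libraries after the correction, beside 17.6% of all genes. The count depended on the libraries used: with the correction and without letter A it was 4 (Mcm10, Foxm1, Bub1 and Tpx2), without letter B it was 3 (Mcm7, Tpx2 and Nusap1), and without letter C it was 2 (Foxm1 and Cenpf). The shares of all genes called lower in these fits were 6.63%, 2.25% and 6.6%. Without the correction it was 0 when any 1 letter was left out, in fits with fewer libraries that called 2.57%, 0.109% and 0.94% of all genes lower.

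The change with AA+2i followed transcript GC content across the members. Pearson's r over the 42 genes, a description across genes that share the same libraries, was 0.838 as deposited and 0.176 after the correction. It was 0.704 and −0.07 for AA, and 0.822 and 0.30 for 2i, all against the same DMSO libraries. The 10 members under 45% GC had a median log2 fold change of −1.05, the 18 between 45% and 50% one of −0.52, and the 14 from 50% up one of 0.13. All genes tested in the same classes had medians of −0.51, −0.21 and 0.38. After the correction the members' medians were −0.55, −0.30 and −0.29, while all genes were at −0.01 in each class. The corrected curves were fitted over all genes, so the −0.01 of all genes is set by the correction itself. It also removes from r the trend that the members share with all genes. Whether it takes out part of a treatment's effect was not tested. In every class the members thus lay below all genes tested of that class, before and after the correction, and the difference was not tested. The outer classes are open, with members from 41.0% to 58.8% GC and all genes tested from 32.8% to 72.9%. Genes of a class therefore need not match the members in GC content. What part GC content has in the change of the members was not tested beyond this.

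**Figure D3:**
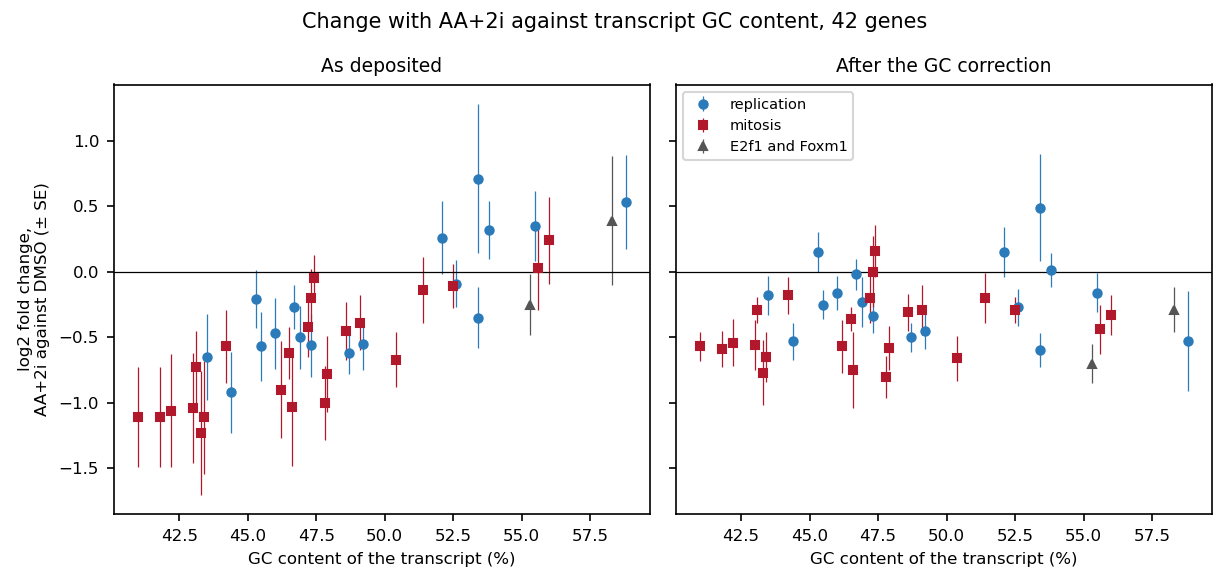
log2 fold change of AA+2i against DMSO (y axis, bars of 1 standard error) against the GC content of the transcript (x axis, %) for the 42 members, as deposited and after the GC correction, with replication members as circles, mitosis members as squares and E2f1 and Foxm1 as triangles. The slope of the left panel is nearly gone in the right one, where 37 of 42 values are below 0.

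Among the licensing genes, the Mcm2 to Mcm7 helicase subunits with Cdc6 and Cdt1, none passed the test with AA+2i as deposited, and log2 fold changes ran from −0.57 (Mcm4) to 0.53 (Cdt1). The most abundant, Mcm7, was at 284, 427 and 464 TPM with DMSO in letters A, B and C, 304, 462 and 433 in AA, 303, 335 and 302 in 2i, and 280.4, 281 and 237 in AA+2i. All AA+2i values lie below all DMSO values in TPM, narrowly so because of DMSO A, but not in log2 CPM as deposited. Its log2 fold change was −0.35 ± 0.23 (SE, adjusted p = 0.329 by edgeR), and −0.60 ± 0.13 (adjusted p = 0.00719) after the GC correction. Mcm5, another helicase subunit, was at 81.7, 159.7 and 180.3 TPM with DMSO, 127, 196 and 188 in AA, 161, 168 and 161 in 2i, and 153, 150.2 and 132 in AA+2i. Here DMSO A was the lowest of the 12 libraries and the groups overlapped. The 6 subunits act as one ring, yet their values as deposited differed in sign: Mcm2 was at 0.35 and Mcm5 at 0.26, while Mcm3, Mcm4, Mcm6 and Mcm7 were at −0.09, −0.57, −0.56 and −0.35. After the correction all but Mcm5 (0.15) were negative, from −0.60 to −0.16. Cdt1, the loader of the helicase, was at 36.3, 62.9 and 40.1 TPM with DMSO, 39.5, 45.1 and 57.2 in AA, 45.6, 47.4 and 81.4 in 2i, and 61.3, 35.4 and 71.2 in AA+2i. These groups overlap, and its log2 fold change turned from 0.53 ± 0.36 (SE) to −0.53 ± 0.38 with the correction, the widest swing of the set. Cdc6, its partner at the origin, was at −0.55 ± 0.20 (SE, adjusted p = 0.12 by edgeR), and at −0.45 ± 0.14 (adjusted p = 0.0426) after the correction.

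Of the 6 fork genes, Mcm10 fell with AA+2i. Mcm10, which helps to switch on the helicase, was at 77.2, 81.6 and 82.5 TPM with DMSO, 79.5, 71.5 and 64.8 in AA, 67.6, 59.6 and 49.5 in 2i, and 50.5, 52.7 and 34.5 in AA+2i. The DMSO libraries agreed more closely for this gene than for most, at 80.4 ± 2.83 TPM (SD, n = 3) against 45.9 ± 9.94 with AA+2i, and the 2i and AA+2i libraries lay below all DMSO libraries. Its log2 fold change was −0.62 ± 0.16 (SE, adjusted p = 0.0377 by edgeR), and −0.50 ± 0.11 (adjusted p = 0.00652) after the GC correction. Without letter A, B or C it was −0.65, −0.76 or −0.45, with adjusted p of 0.119, 0.272 or 0.337 by edgeR, so the call needed all libraries. Pcna, the sliding clamp and the member with the highest level, was at 1029.7, 672 and 693 TPM with DMSO, 957, 682 and 692 in AA, 713, 685 and 611 in 2i, and 625, 649 and 545 in AA+2i. Letters B and C with DMSO lay only just above AA+2i in TPM, and the groups overlapped in log2 CPM. The log2 fold change of Pcna, −0.21 ± 0.22 (SE), turned to 0.15 ± 0.15 with the correction. Gins2, a GINS subunit, was at 14.7, 59.0 and 50.8 TPM with DMSO, 19.8, 73.8 and 80.4 in AA, 34.0, 54.8 and 64.4 in 2i, and 58.9, 46.3 and 65.5 in AA+2i. The letter A libraries of DMSO and AA were low and the other groups overlapped, so that its log2 fold changes of 0.56 (AA), 0.53 (2i) and 0.71 (AA+2i) each had a standard error of 0.57. Fen1, the nuclease that trims Okazaki fragments, was at 45.9, 64.3 and 71.8 TPM with DMSO, 57.5, 68.4 and 80.1 in AA, 69.1, 68.7 and 76.7 in 2i, and 73.0, 60.9 and 63.0 in AA+2i. The groups overlapped, and the log2 fold change with AA+2i was 0.32 ± 0.22 (SE) as deposited and 0.01 ± 0.13 after the correction. Gins1 and the clamp loader subunit Rfc4 were at −0.50 and −0.65 as deposited without passing the test.

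The 3 nucleotide genes had negative values with AA+2i, from −0.92 (Rrm1) to −0.27 (Tyms, thymidylate synthase). Rrm2, the regulated subunit of ribonucleotide reductase, was at 942, 611 and 689 TPM with DMSO, 1059, 668 and 594 in AA, 693, 542 and 441 in 2i, and 504, 565 and 366 in AA+2i. AA+2i lay below all DMSO libraries in TPM but not in log2 CPM, and the log2 fold change was −0.47 ± 0.27 (SE, adjusted p = 0.28 by edgeR). Rrm1, the other subunit, was at 453, 257 and 299 TPM with DMSO, 369.7, 234 and 207 in AA, 285, 222 and 175 in 2i, and 187, 184 and 104 in AA+2i. Its log2 fold change of −0.92 ± 0.31 (SE, adjusted p = 0.0943 by edgeR) became −0.53 ± 0.14 (adjusted p = 0.019) after the correction. AA+2i was again below every DMSO library.

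The 2 transcription factors of these programmes have GC-rich transcripts, of 55.3% in Foxm1 and 58.3% in E2f1. Foxm1, the G2/M activator, was at 39.5, 81.1 and 59.9 TPM with DMSO, 47.9, 65.4 and 67.1 in AA, 44.9, 45.1 and 45.3 in 2i, and 47.9, 42.3 and 39.5 in AA+2i. DMSO A was as low as the lowest treated library while DMSO B and DMSO C were above all 2i and AA+2i libraries. The log2 fold change with AA+2i was −0.25 ± 0.23 (SE, adjusted p = 0.461 by edgeR) as deposited and −0.70 ± 0.15 (adjusted p = 0.00661) after the correction. E2f1, the G1/S activator, was at 15.8, 54.6 and 44.3 TPM with DMSO, 15.0, 50.7 and 51.7 in AA, 32.7, 52.3 and 50.5 in 2i, and 45.2, 38.7 and 42.8 in AA+2i. Letter A was low with DMSO and AA and not with AA+2i, and the value went from 0.39 ± 0.49 (SE) to −0.29 ± 0.17 with the correction, passing the test in neither.

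Of the 7 genes of mitotic entry, 6 had negative values with AA+2i as deposited and none passed the test. Ccnb1, the mitotic cyclin B1, was at 573, 340.4 and 448 TPM with DMSO, 546, 357 and 332 in AA, 409, 329.5 and 249.7 in 2i, and 283, 333 and 200.1 in AA+2i. In TPM the AA+2i values stay below the DMSO values, with DMSO B and AA+2i B close to each other, but in log2 CPM they overlap. The log2 fold change of Ccnb1 was −0.57 ± 0.28 (SE, adjusted p = 0.224 by edgeR). Ccna2 (cyclin A2) and Cdc25c, the phosphatase that activates Cdk1, had the lowest values of the group at −0.90 ± 0.37 and −0.78 ± 0.29 (SE). Cdc25c passed the edgeR test after the correction (−0.58 ± 0.17 SE, adjusted p = 0.0304) and Ccna2 did not (−0.57 ± 0.20 SE, adjusted p = 0.0605). Plk1, the Polo kinase, was the group's positive value at 0.24 ± 0.33 (SE) and stood at −0.33 ± 0.15 after the correction. Cdk1 itself was at −0.42 ± 0.23 (SE) and −0.20 ± 0.19 on these scales.

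The 6 genes of the spindle checkpoint and mitotic exit had log2 fold changes from −1.11 (Bub1) to 0.03 (Cdc20) with AA+2i as deposited, and none passed the test. Bub1, a checkpoint kinase and the member with the lowest GC content, was at 142, 83.9 and 77.0 TPM with DMSO, 144, 68.7 and 59.7 in AA, 78.7, 56.9 and 38.7 in 2i, and 46.6, 52.6 and 26.2 in AA+2i. AA+2i was below every DMSO and every AA library. The log2 fold change of −1.11 ± 0.38 (SE) did not pass (adjusted p = 0.103 by edgeR), and that of −0.57 ± 0.11 after the correction did (adjusted p = 0.005). Bub1b, which binds and restrains the Cdc20 activator of anaphase, was at −0.67 ± 0.21 (SE, adjusted p = 0.0735 by edgeR) and, corrected, at −0.66 ± 0.17 (adjusted p = 0.0156). Ttk, the kinase at the head of the checkpoint, was at −0.73 ± 0.28 (SE) and −0.29 ± 0.10, and passed in neither fit. Birc5 (survivin), the partner of Aurora B, was the most abundant of the group at 293, 238 and 364 TPM with DMSO, 349.8, 302 and 349 in AA, 281, 286 and 274 in 2i, and 249, 306 and 253 in AA+2i. The groups overlap, and its value was −0.05 ± 0.18 (SE) as deposited and 0.16 ± 0.20 after the correction. Cdc20 and Aurkb, the Aurora B kinase, were at 0.03 and −0.11 as deposited and at −0.44 and −0.29 after the correction, without passing.

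The spindle and cytokinesis genes had a median log2 fold change of −1.0 with AA+2i, and all 5 were negative. Tpx2, which activates Aurora A and nucleates spindle microtubules, fell. It was at 235, 144 and 182 TPM with DMSO, 222, 152 and 136 in AA, 155, 120.1 and 91.3 in 2i, and 93.8, 98.8 and 57.6 in AA+2i. All 3 AA+2i libraries lay below all DMSO and all AA libraries. The means were 187 ± 45.6 TPM (SD, n = 3) and 83.4 ± 22.5, and the log2 fold change was −1.0 ± 0.28 (SE, adjusted p = 0.049 by edgeR), and −0.80 ± 0.16 (adjusted p = 0.00483) after the correction. It was −0.82, −1.31 or −0.83 without letter A, B or C, with adjusted p of 0.127, 0.209 or 0.33 by edgeR. Nusap1, a microtubule bundling protein of the spindle, was at 318, 168 and 183 TPM with DMSO, 274, 145 and 120.3 in AA, 165, 132 and 86.7 in 2i, and 103, 119 and 56.9 in AA+2i. DMSO A and AA A were far above the rest. Its log2 fold change was −1.11 ± 0.38 (SE, adjusted p = 0.10 by edgeR), and −0.59 ± 0.14 (adjusted p = 0.0117) after the correction. Kif11, the kinesin that pushes spindle poles apart, and Kif20a and Kif23, kinesins of the midzone, were at −1.06, −0.45 and −0.62 as deposited. Kif23 passed after the correction at −0.36 ± 0.09 (SE, adjusted p = 0.0178 by edgeR).

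**Figure D4:**
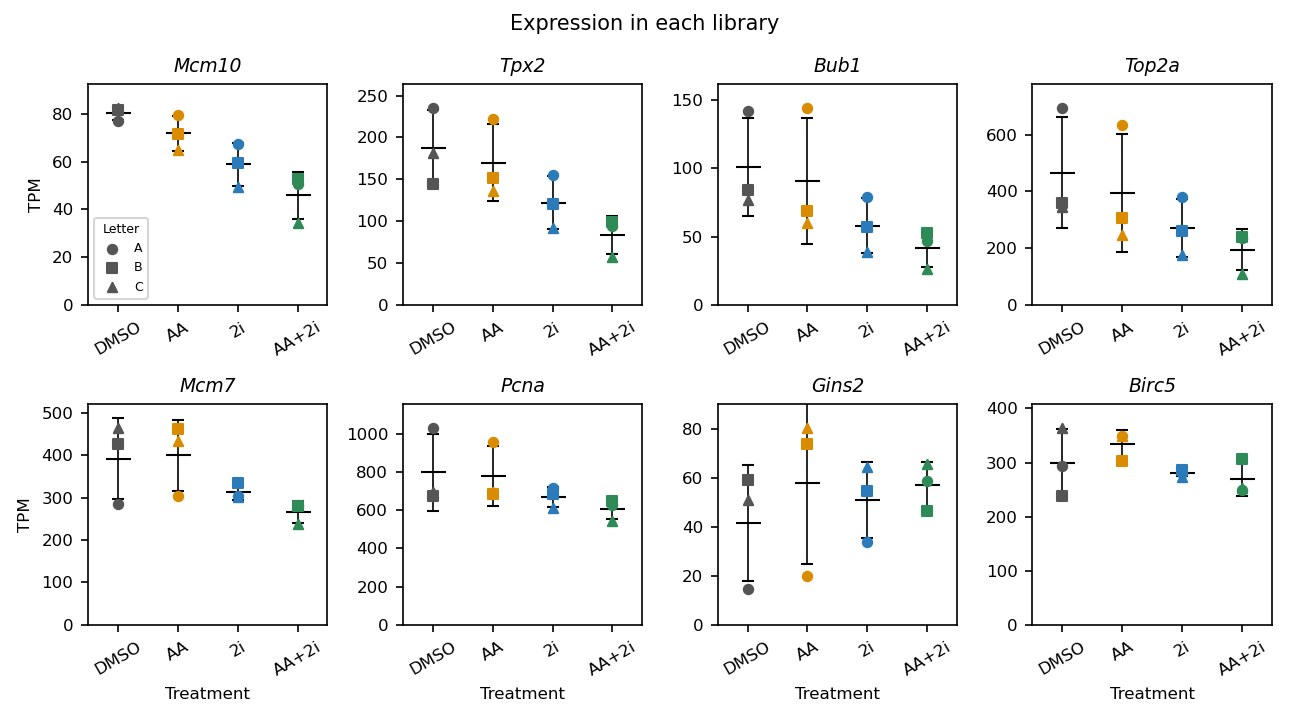
TPM (y axis, from 0) of 8 members in the 12 libraries by treatment, with the letter as the symbol and the mean ± SD (n = 3) in black. Mcm10, Tpx2, Bub1 and Top2a have all AA+2i points below all DMSO points, while the points of Gins2 and Birc5 overlap between DMSO and AA+2i.

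The centromere and chromosome genes had the lowest median of the 8 groups of members, −1.04. Top2a, the topoisomerase that untangles sister chromosomes, was at 694, 359 and 347 TPM with DMSO, 634, 307 and 247 in AA, 379.8, 260.4 and 175 in 2i, and 236, 239 and 110.1 in AA+2i. AA+2i lay below every DMSO library, and the log2 fold change of −1.11 ± 0.43 (SE) did not pass (adjusted p = 0.143 by edgeR), whereas that of −0.65 ± 0.19 after the correction did (adjusted p = 0.0359). Cenpf, a large kinetochore protein, was at 111, 73.7 and 41.8 TPM with DMSO, 98, 44.1 and 34.4 in AA, 51.2, 31.9 and 20.2 in 2i, and 37.7, 33.2 and 15.4 in AA+2i. DMSO was the highest group within each letter, and yet DMSO C was below AA A, AA B and 2i A. Its value, −1.23 ± 0.47 (SE, adjusted p = 0.142 by edgeR), was the lowest of the 42, and became −0.77 ± 0.25 (adjusted p = 0.0461) after the correction. Cenpe, a kinetochore motor, was at 113, 74.9 and 46.0 TPM with DMSO, 93.0, 43.6 and 36.1 in AA, 64.7, 42.6 and 29.1 in 2i, and 42, 39.2 and 20 in AA+2i. Mki67, the source of the Ki-67 proliferation antigen, was at 471, 318 and 201 TPM with DMSO, 448, 206 and 157 in AA, 265, 160.0 and 112 in 2i, and 186, 161 and 83.2 in AA+2i. Both were below every DMSO library with AA+2i in TPM and in log2 CPM as deposited, but not after the GC correction. Neither passed the test, at −1.04 ± 0.42 and −1.03 ± 0.45 (SE) as deposited and −0.56 ± 0.19 and −0.75 ± 0.29 after the correction. Cenpa, the histone variant that marks centromeres, differed from the rest of its group, at −0.20 ± 0.22 (SE) and 0.00 ± 0.27.

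AA+2i was also set against each agent alone. Against AA, no member passed the edgeR test, beside 3.29% of all genes lower and 2.81% higher, although 7 had an unadjusted p under 0.05 with a lower value, beside 9.31% of all genes, and DESeq2 called 3 lower (Mcm10, Kif23 and Tpx2), beside 5.36%. The median was −0.41, and 36 of 42 were negative. After the GC correction edgeR called 9 lower, beside 8.46% of all genes: Mcm7, Cdc6, Mcm10, Foxm1, Bub1, Ttk, Kif23, Tpx2 and Nusap1, from −0.72 (Tpx2) to −0.35 (Ttk). Against 2i no member passed either, beside 0.149% of all genes lower and 0.761% higher. The median there was −0.24, 38 of 42 were negative, and 1 (Kif20a, −0.52 ± 0.22 SE) had an unadjusted p under 0.05, beside 3.6% of all genes lower. DESeq2 called none against 2i, beside 0.93% of all genes lower and 2.57% higher.

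The 4 groups form a design in which the effect of adding 2i with and without AA can be compared. The interaction subtracts both single-agent changes from that of the combination on the log2 scale, and it passed for no member in edgeR, beside 0.0149% of all genes higher and 0% lower, and none had an unadjusted p under 0.05, beside 1.68% of all genes higher and 0.627% lower. DESeq2 called none, beside 0.16% of all genes higher and 0.03% lower. The interaction was negative in 37 of 42 members with a median of −0.19, from −0.47 (Mcm5) to 0.18, and −0.16 after the GC correction. Single interactions had standard errors such as 0.26 for Mcm3 and 0.39 for Mcm5, so an effect of this size could not be separated from none for any one gene.

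Other genes of the same machinery, from lists set by function, were read from the same fit. Of 49 further replication genes, among them the origin recognition complex, the polymerases and the replication factor C subunits, none passed with AA+2i against DMSO in edgeR, with 0 higher and 6 lower at an unadjusted p under 0.05 (11.5% and 13.3% of all genes) and a median of −0.15. Against AA, Ccne1, the cyclin E1 of S phase entry, fell by 0.78 on the log2 scale (SE 0.19, adjusted p = 0.0316 by edgeR), from 91.8 ± 5.72 TPM (SD, n = 3) to 47.3 ± 2.69. Of 78 further mitosis genes tested, 6 fell against DMSO with AA+2i and none rose, beside 4.41% of all genes lower, with a median of −0.54 and 61 of 78 negative. The 3 with the smallest p were Cdca2, a phosphatase subunit on mitotic chromosomes (−0.83 ± 0.17 SE, adjusted p = 0.0124 by edgeR), Dlgap5, a spindle assembly factor (−0.76 ± 0.19 SE, adjusted p = 0.0299), and Ckap2, a spindle microtubule protein (−0.98 ± 0.25 SE, adjusted p = 0.0347). Nek2, Kif2c and Ect2 were the others. Against AA, Nek2 (−0.82 ± 0.18 SE, adjusted p = 0.0225 by edgeR) and Cdca2 (−0.64 ± 0.17 SE) were called lower, beside 3.29% of all genes. Cdca2 was at 83.5, 95.5 and 78.8 TPM with DMSO and 47.8, 48.3 and 30.4 with AA+2i, without overlap. After the GC correction 31 of these 78 mitosis genes (39.7%) and 6 of the 49 replication genes (12.2%) were called lower by edgeR, beside 10.7% of all genes, so the replication share is near that of all genes. With AA alone the main edgeR fit called no gene of either list, beside 0.87% of all genes higher and 0.47% lower. None was called after the correction, beside 2.57% and 1.62%. With correction and block, 1 mitosis gene was higher and 1 lower, beside 5.58% and 5.28% of all genes. In that fit 1 replication gene was higher and 2 lower. With 2i alone the main edgeR fit called none, beside 2.83% of all genes lower. DESeq2 called 3 mitosis genes lower, beside 5.04%, and limma 2, beside 3.37%. After the correction edgeR called 7 mitosis genes and 1 replication gene lower with 2i, beside 7.47% of all genes.

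The 33 members with a promoter were also grouped by the elements shown above, for their change with AA+2i. The 20 members with a CHR match had a median log2 fold change of −0.44 and the 13 without one −0.55, and after the GC correction these were −0.29 and −0.45. The 25 with a CCAAT match had medians of −0.56 as deposited and −0.34 after the correction, and the 8 without one −0.16 and −0.24. The 7 with an E2F match had medians of −0.35 and −0.34, and the 26 without one −0.60 and −0.31. The values describe the groups and carry no test.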

How the data were processed

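RNA was sequenced from 12 libraries of mouse pre-iPSCs, 3 replicates (letters A, B and C) in each of 4 groups, with unstranded libraries. Before deposit, the authors clipped the reads, dropped those of low quality, mapped the remainder to mm9 RefSeq genes with Bowtie2 and quantified the genes with RSEM 1.2.4. They deposited expected counts, estimated reads per gene that need not be whole and are not normalized. They also deposited TPM, scaled within each library by gene length and total. Reads shared by near-identical genes are divided by RSEM.

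The rounded counts were fitted in edgeR 4.0.16 (quasi-likelihood test, RLE factors, R 4.3.3) in 1 model of the 4 groups with 8 residual degrees of freedom, for the 13400 genes that reached 10 counts or more in 3 or more libraries. Calls had a Benjamini-Hochberg adjusted p under 0.05 over all genes tested. Standard errors were derived from the fold change and its F statistic and so restate the test. Log2 CPM used a prior count of 2. Groups came from the labels. The members and lists were chosen with earlier results of these data known. Values in all 12 libraries are given for members called against DMSO, the most abundant of each role, and the 3 largest and 3 smallest changes against DMSO. Rrm1 was added to these after its values were seen. Whether the letters stand for shared cultures is not given in the sources used here. The main fit took no account of the letter, and its p-values set each change against the spread between libraries of a group.

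Same-letter libraries deviated together for DMSO and AA (r from 0.608 to 0.894 across genes) and for DMSO and 2i (0.177 to 0.787), so these comparisons were also fitted with the letter as a block, which changed no call for AA. Alternatives were TMM factors, DESeq2 1.42.0, limma 3.58.1 on log2(TPM + 1), a fit of all genes with any count, the block, leaving out each letter, and a GC correction, an offset per library from a loess curve (span 0.4) against the GC content of mm9 transcripts, known for 13280 genes (99.1%). The correction without each letter was added after the data were seen. Some of the fits were also run on simulated counts with known changes, with and without the GC curves of the libraries. These counts had no separate letter effect, and the outcome is not reported here. One malformed TPM cell was treated as missing. FPKM values were not used. Promoters are from RefSeq.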

Additional observations from a re-analysis of the deposited data

How the results depend on the processing

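No member was called higher in any of the 6 comparisons under any setting run. With AA+2i against DMSO, 3.93% of all genes were higher with edgeR and 6.71% with DESeq2. The GC correction gave 8.95%, and correction with block 17.18%. Without letter A, B or C the share was 2.29%, 0.03% or 1.29%. With AA alone no member was called lower, beside 0.47% of all genes with edgeR and 5.28% with correction and block. For the interaction none was lower either, beside 0.0% and 0.02% in these fits. The number called lower with AA+2i against DMSO was 2 with edgeR, TMM factors and RLE factors alike, and 3 with limma (5.3% of all genes). It was 7 with DESeq2 (7.31% of all genes), 0 without the count filter (3.1%, more genes tested), 17 with the replicate block (16.3%), 13 with the GC correction, 21 with both (19%) and 0 to 0 when 1 letter was left out, in fits of fewer libraries. With the GC correction and without letter A, B or C it was 4, 3 or 2 (6.63%, 2.25% and 6.6% of all genes). Beyond the constructions named, the cause was not tested. With 2i against DMSO it was 2 with the block (8.18%), 1 with the GC correction (7.47%) and 9 with both (14.2%). Against AA it was 3 with DESeq2 (5.36%), 9 with the block (8.15%), 9 with the GC correction (8.46%) and 19 with both (15%), and against 2i it was 1 with both (4.91%). Pairing was taken as shown where r of same-letter deviations was over 0.1 in every letter. AA+2i did not meet this with any other group (−0.588 to 0.535 with DMSO, −0.543 to 0.761 with AA and 0.067 to 0.81 with 2i, positive in every letter), so its blocked counts rest on a shared letter only.

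Of the 19 members whose 12 values follow from the rule, all 19 kept direction and side of the threshold with TMM factors and limma. Without the count filter Mcm10 and Tpx2 just missed it (adjusted p = 0.0596 and 0.0577 by edgeR). Signs turned for members far from the threshold in AA+2i against DMSO. Pcna went from −0.21 to 0.15 with the GC correction, 0.15 with the replicate block added to it, and 0.25, 0.16 and 0.06 with the correction and without letter A, B or C. Leaving out a letter alone gave −0.39 to 0.08. Birc5 went from −0.05 to 0.16 and 0.17, to 0.12, 0.11 and 0.26, and to between −0.23 and 0.1 in the same order. E2f1 went from 0.39 to −0.29 and −0.31, and to −0.3, −0.52 and −0.08. Cdt1 went from 0.53 to −0.53 and −0.41, and to −0.06, −0.67 and −0.78. With the correction Fen1 was at −0.00 and −0.08 without letter A or B, and Mcm5 at −0.06 without letter A.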
